A study of Mus musculus with 9 samples.

Results

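The genes described here are 10 core genes of the Notch pathway that were picked by name, with earlier results of these data known. They are the receptors Notch1, Notch2 and Notch3, the ligands Dll1, Dll3, Jag1 and Jag2, the DNA-binding partner Rbpj and the fringe enzymes Mfng and Lfng. All 10 were among the 53379 gene IDs of the count table, and all 10 were among the 17760 genes that passed the filter on low counts. RNA was measured in GFP-labelled cells of the mouse cortex (strain C57BL/6) at E15.5, in embryonic days. Short hairpin RNAs (shRNAs) had been electroporated in utero at E13.5, and the cells that took them up were sorted by fluorescence. The first group received a mix of 3 shRNAs against circSlc45a4, a circular RNA of the Slc45a4 gene, the second received a mix of 2 shRNAs against the linear Slc45a4 mRNA, and scramble cells received 1 control sequence. Each group has 3 libraries that the submitters call biological replicates, and nothing says whether they came from separate litters, so p-values measure only the spread between these libraries, which may be technical. The shRNAs of a mix were not sequenced apart, so no value belongs to 1 shRNA. RNA was selected by its polyA tail, which circular RNA lacks, so the level of circSlc45a4 itself was not read.

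Notch signalling passes between touching cells. A Delta or Jagged ligand on one cell pulls on a Notch receptor of its neighbour, the receptor is cut, and its freed intracellular domain binds Rbpj in the nucleus and switches on genes such as Hes1, Hes5 and Hey1. In the embryonic cortex the pathway is known for keeping radial glia, the apical progenitors along the ventricle, from turning into neurons too early, while newborn neurons and intermediate (basal) progenitors present Delta ligands to them. Fringe enzymes add a sugar to the receptors' extracellular repeats and so change which ligands they answer to.

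The promoters of the 4 members that changed most under circSlc45a4 knockdown against scramble are shown first, so that the letters upstream of genes that moved in opposite directions can be read side by side. They are the RefSeq windows (GRCm38.p6) from 250 bases before to 50 bases after the start, read 5′ to 3′ on the strand of the gene. Notch2 lies at chr3:98013288-98013587 (plus strand), Lfng at chr5:140607091-140607390 (plus), Dll3 at chr7:28301736-28302035 (minus) and Jag1 at chr2:137116471-137116770 (minus). Capitals mark matches to GTGGGAA, the letters Rbpj binds, and to the E boxes CAGCTG and CAGATG, which proneural factors bind, on either strand.
Notch2: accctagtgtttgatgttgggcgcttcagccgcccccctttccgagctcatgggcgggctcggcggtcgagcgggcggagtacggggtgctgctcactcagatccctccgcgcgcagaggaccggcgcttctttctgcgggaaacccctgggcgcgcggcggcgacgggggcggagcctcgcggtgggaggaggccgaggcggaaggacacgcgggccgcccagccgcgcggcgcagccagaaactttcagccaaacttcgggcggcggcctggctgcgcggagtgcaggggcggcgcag
Lfng: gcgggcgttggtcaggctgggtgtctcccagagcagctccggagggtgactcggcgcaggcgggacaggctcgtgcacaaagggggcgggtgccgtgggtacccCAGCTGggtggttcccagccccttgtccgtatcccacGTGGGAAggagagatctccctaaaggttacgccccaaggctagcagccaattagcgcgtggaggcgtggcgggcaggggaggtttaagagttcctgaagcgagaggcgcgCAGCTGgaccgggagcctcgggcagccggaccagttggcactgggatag
Dll3: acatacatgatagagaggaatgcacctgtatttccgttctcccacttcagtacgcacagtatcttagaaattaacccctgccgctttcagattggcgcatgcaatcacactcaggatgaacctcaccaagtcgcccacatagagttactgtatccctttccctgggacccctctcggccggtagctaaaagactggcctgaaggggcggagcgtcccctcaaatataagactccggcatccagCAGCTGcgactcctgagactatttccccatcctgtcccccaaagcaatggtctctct
Jag1: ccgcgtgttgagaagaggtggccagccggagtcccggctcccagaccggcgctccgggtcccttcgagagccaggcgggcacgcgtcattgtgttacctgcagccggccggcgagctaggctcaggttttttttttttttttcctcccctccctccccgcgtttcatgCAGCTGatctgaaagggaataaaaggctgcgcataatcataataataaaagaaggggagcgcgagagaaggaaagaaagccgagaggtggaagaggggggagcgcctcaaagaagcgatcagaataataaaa
The Lfng window held 1 GTGGGAA, 109 bases before the start, and 2 CAGCTG. Dll3 held a CAGCTG 7 bases and Jag1 a CAGCTG 82 bases before the start, and the Notch2 window, with 73% G and C, held none of the 3 motifs. Across the 32851 windows of the table, GTGGGAA on either strand was present in 6.38%. The CAGCTG motif was present in 16.3% and the second E box in 17.2% of windows, and no matches overlapped in the windows of the members. Of the other members in the table, Notch1, Notch3, Jag2 and both starts of Rbpj held no match, and 1 of the 2 starts of Dll1 held a CAGCTG 132 bases before it. A match is a description of the letters and not a measured binding site.

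Total counts ran from 21073174 to 45469298 per library. The linear Slc45a4 transcript stood at 24.7 to 25.4 CPM, counts scaled to a common library size, under circSlc45a4 knockdown and at 13.3 to 18.5 CPM under Slc45a4 mRNA knockdown, against 31.4 to 33.96 CPM in scramble. It fell by 0.39 ± 0.12 on the log2 scale (SE) under circSlc45a4 knockdown and by 1.01 ± 0.12 under Slc45a4 mRNA knockdown (edgeR adjusted p = 0.0245 and 1.08e-04). Xist, expressed from the inactive X chromosome of females, stood at 264 to 635 CPM under circSlc45a4 knockdown and at 1550, 637 and 0.194 CPM under Slc45a4 mRNA knockdown, against at most 0.239 CPM in scramble, so the sex of the embryos was not balanced between the groups. Cortex markers were present in every library: the 5 genes summed to 2086 to 2284 CPM under circSlc45a4 knockdown, 2113 to 2204 CPM under Slc45a4 mRNA knockdown and 2101 to 2506 CPM in scramble. Markers of apical progenitors (8 genes, all tested) summed to 1363 to 1484 CPM under circSlc45a4 knockdown and 899.6 to 1149.6 CPM under Slc45a4 mRNA knockdown, against 813 to 1058 CPM in scramble. Markers of newborn neurons (7 genes) summed to 3157 to 3395 CPM under circSlc45a4 knockdown and 3011 to 3463 CPM under Slc45a4 mRNA knockdown, against 4177 to 4959 CPM in scramble. Markers of basal progenitors (7 genes) summed to 1225 to 1458 CPM under circSlc45a4 knockdown and 1500 to 1542 CPM under Slc45a4 mRNA knockdown, against 1579 to 1691 CPM in scramble. The lists for ventral inhibitory neurons, oligodendrocyte precursors, endothelial cells, pericytes, microglia, meningeal fibroblasts and erythroid cells each summed to at most 13.3 CPM in any library. In bulk RNA, fewer cells of a type and less RNA per cell cannot be told apart, and the part of these shifts in the members' changes was not tested.

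Against scramble, 6 of the 10 genes passed the test under circSlc45a4 knockdown (edgeR quasi-likelihood F test, Benjamini-Hochberg adjusted p under 0.05 over all genes tested), beside 27.1% of all genes tested. Notch2, Rbpj and Lfng rose, as did 14.1% of all genes, and Dll3, Jag1 and Mfng fell, as did 13.0%. These are also the 6 whose libraries did not overlap between the groups, beside 43.9% of all genes. Under Slc45a4 mRNA knockdown 3 of 10 passed, beside 18.0% of all genes tested. Notch2 and Rbpj rose (8.92% of all genes did) and Mfng fell (9.09%), and the libraries of those 3 did not overlap (36.1%). The circSlc45a4 knockdown differed directly from the Slc45a4 mRNA knockdown in 6 of 10, beside 26.1% of all genes tested. There Notch2, Notch3 and Lfng were higher (13.8% of all genes were) and Dll3, Jag1 and Mfng lower (12.3%), again the 6 without overlap (40.1%). The median log2 fold change of the 10 genes was 0.20 under circSlc45a4 knockdown, 0.09 under Slc45a4 mRNA knockdown and 0.13 between the knockdowns, against -0.01, 0.01 and -0.02 over all genes tested. Both knockdowns were set against the same 3 scramble libraries, so their values are given side by side and their likeness is not counted as a result. The 10 genes were chosen with earlier results of these data known, so their shares beside all genes are a description only.

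**Figure D1:**
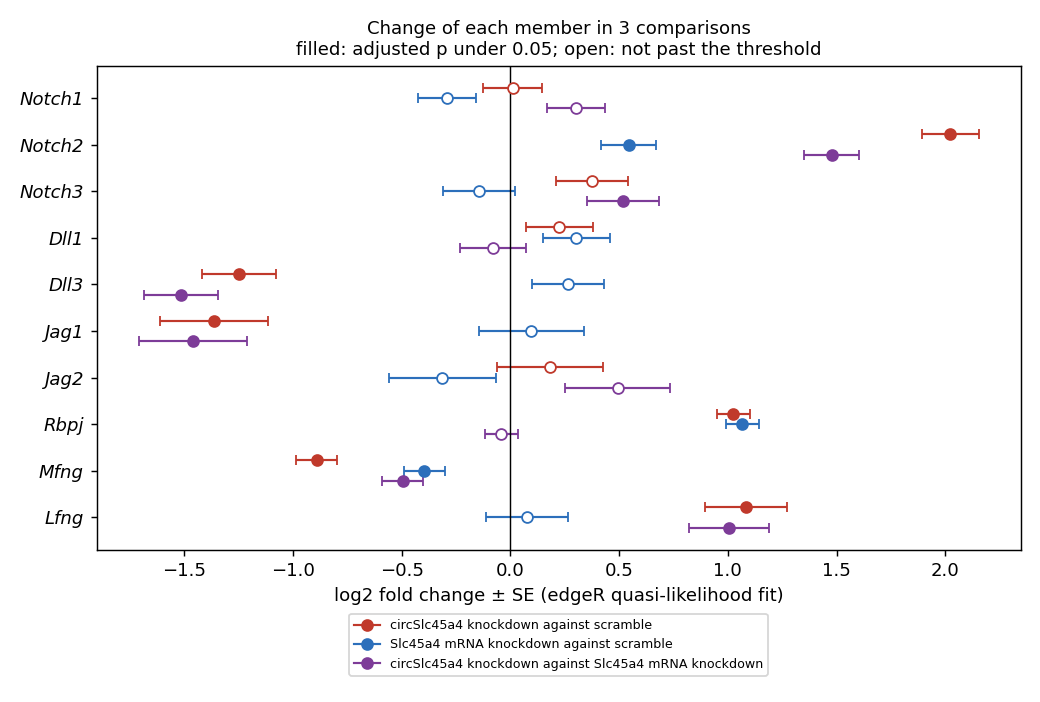
Log2 fold change with its standard error (horizontal axis) of the 10 Notch genes (rows) under circSlc45a4 knockdown against scramble, the Slc45a4 mRNA knockdown against scramble and the direct comparison of the knockdowns, filled where the adjusted p of edgeR is under 0.05. Notch2 stands highest at 2.02 under circSlc45a4 knockdown, Rbpj stands near 1 in both knockdowns, and Dll3 and Jag1 lie below -1 under circSlc45a4 knockdown alone among the comparisons with scramble.

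Scramble replicate 1, the library with the lowest total count, was the lowest of its group for 9 of the 10 genes (all but Jag2). Without it, the 6 genes of the circSlc45a4 knockdown were called again. With the level of Xist as a covariate the same 6 were called too. Xist was high in every circSlc45a4 knockdown library and nearly absent in every scramble library, so this fit cannot separate sex from group. Its adjustment leans mainly on the Slc45a4 mRNA knockdown, where only replicate 3 nearly lacked Xist. Counts of the 10 genes ran from 161 in Lfng to 8839 in Rbpj per library.

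Notch2 moved most of the receptors. The gene (chr3:98013527-98150361, plus strand, GRCm38) encodes a receptor present in radial glia, and it stood at 147, 149.8 and 144 CPM under circSlc45a4 knockdown and at 49.3, 44.4 and 64.4 CPM under Slc45a4 mRNA knockdown, against 31.7, 40.9 and 35.7 CPM with scramble. All 3 circSlc45a4 knockdown libraries stood above 140 CPM and the 3 groups did not overlap. The mean was 147 ± 3.04 CPM under circSlc45a4 knockdown and 52.7 ± 10.4 CPM under Slc45a4 mRNA knockdown, against 36.1 ± 4.61 CPM in scramble (SD, n = 3 each). Notch2 rose by 2.02 ± 0.13 on the log2 scale under circSlc45a4 knockdown (SE, adjusted p = 6.59e-07), which is 4.06-fold. The rise under Slc45a4 mRNA knockdown was 0.54 ± 0.13 (adjusted p = 0.01005), or 1.46-fold. The knockdowns differed from each other by 1.48 ± 0.13 (adjusted p = 6.53e-06), 2.79-fold. The smaller rise missed the threshold when at least a 1.2-fold change was asked for (adjusted p = 0.0776) and was 0.83 with Xist as a covariate.

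Notch1 (chr2:26457903-26516663, minus strand), the receptor best known for progenitor maintenance in the cortex, stood at 149, 151 and 170.1 CPM under circSlc45a4 knockdown and at 109, 119.5 and 153 CPM under Slc45a4 mRNA knockdown, against 126, 166 and 175 CPM with scramble. The libraries of the 3 groups overlapped and the lowest value was under Slc45a4 mRNA knockdown. The log2 fold change was 0.01 ± 0.13 under circSlc45a4 knockdown (adjusted p = 0.963) and -0.29 ± 0.14 under Slc45a4 mRNA knockdown (adjusted p = 0.156). The knockdowns differed by 0.30 ± 0.13 (adjusted p = 0.118). Notch1 was called lower under Slc45a4 mRNA knockdown against scramble without scramble replicate 1 (-0.42, adjusted p = 0.0459) or without Slc45a4 mRNA knockdown replicate 3 (-0.45, adjusted p = 0.0414), and without this Slc45a4 mRNA knockdown library it was also called higher under circSlc45a4 knockdown than under Slc45a4 mRNA knockdown (0.46, adjusted p = 0.0270).

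Notch3 (chr17:32120820-32166852, minus strand), a receptor of radial glia and also of vessel wall cells, stood at 26.4, 30.3 and 29.2 CPM under circSlc45a4 knockdown and at 18.8, 18.3 and 22.7 CPM under Slc45a4 mRNA knockdown, against 15.4, 23.9 and 26.5 CPM with scramble. The circSlc45a4 knockdown lay above the Slc45a4 mRNA knockdown in every library and overlapped scramble. It was higher than the Slc45a4 mRNA knockdown by 0.52 ± 0.16 (adjusted p = 0.0330, 1.43-fold), and against scramble the changes were 0.38 ± 0.16 (adjusted p = 0.111) and -0.14 ± 0.17 (adjusted p = 0.595) under circSlc45a4 and Slc45a4 mRNA knockdown. The direct call stood close to the threshold: it was lost without circSlc45a4 knockdown replicate 1 (adjusted p = 0.0523), 2 (0.0993) or 3 (0.0720) and without Slc45a4 mRNA knockdown replicate 1 (0.0775) or 2 (0.103), at differences of 0.46 to 0.58. Without scramble replicate 3 the rise against scramble under circSlc45a4 knockdown was called (0.53, adjusted p = 0.0437). Pericyte markers, of a vessel cell that also carries Notch3, summed to 3.89 to 5.99 CPM under circSlc45a4 knockdown. The sums were 2.65 to 3.71 CPM under Slc45a4 mRNA knockdown and 2.11 to 5.64 CPM in scramble. Of the 3 markers tested, Pdgfrb alone was called, higher under circSlc45a4 knockdown than in scramble (14.1% of all genes were) and than under Slc45a4 mRNA knockdown (13.8%). It averaged 3.71 CPM under circSlc45a4 knockdown, 1.66 CPM under Slc45a4 mRNA knockdown and 1.43 CPM in scramble. Rgs5 averaged 0.454, 0.449 and 1.18 CPM in the same order. The part of these markers in the change of Notch3 was not tested.

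**Figure D2:**
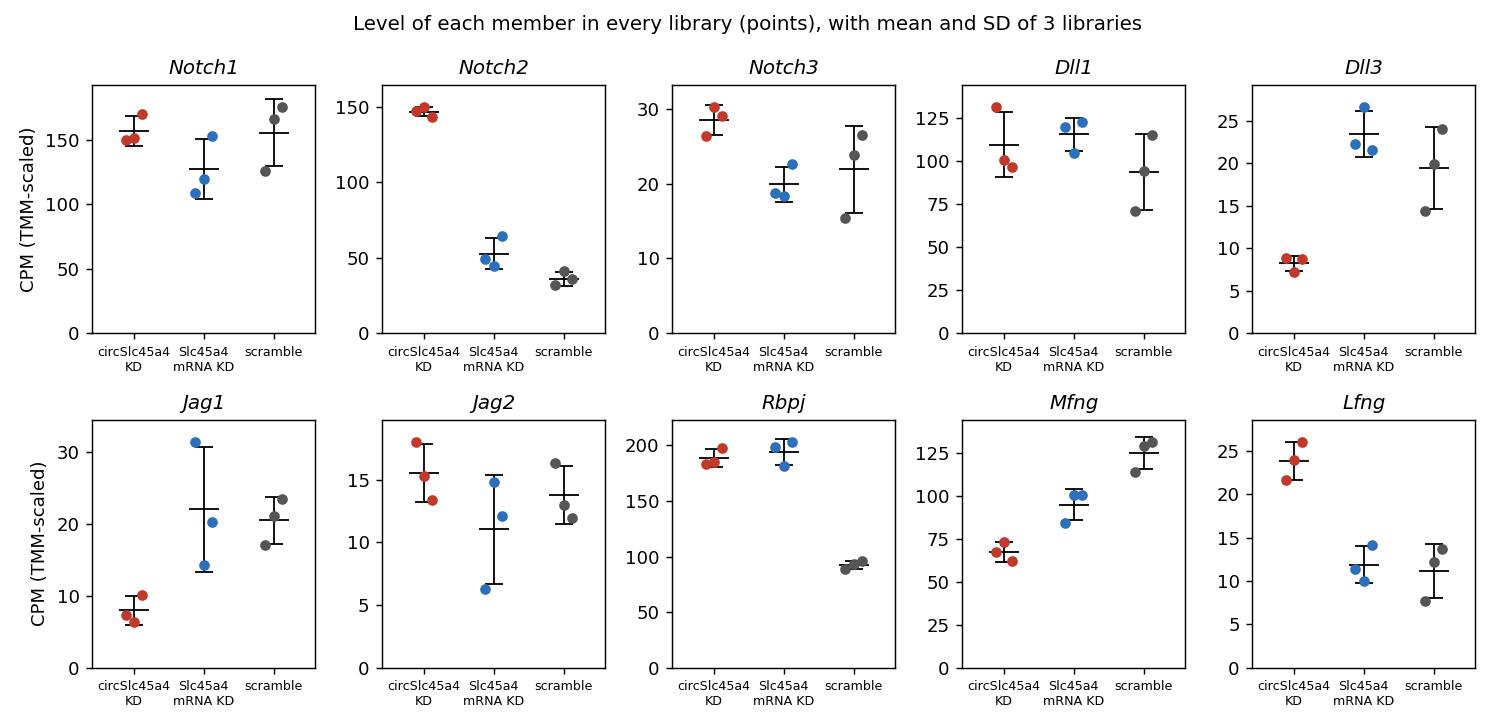
Each panel plots the level of 1 gene (vertical axis, CPM after TMM scaling, from 0) in each of the 9 libraries as points, with the mean and SD of 3 libraries as bars, for the circSlc45a4 knockdown, the Slc45a4 mRNA knockdown and scramble. For Notch2 and Lfng the circSlc45a4 knockdown lies above both other groups, for Dll3 and Jag1 it lies below both, and for Rbpj both knockdowns lie near 190 CPM and scramble near 93 CPM.

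Of the ligands, Dll3 and Jag1 fell under circSlc45a4 knockdown and Dll1 and Jag2 did not pass the test in any comparison. Dll3 (chr7:28293553-28302238, minus strand) is a divergent Delta ligand that does not activate receptors on a neighbouring cell and is known as an inhibitor within its own cell. It stood at 8.79, 7.16 and 8.67 CPM under circSlc45a4 knockdown and at 22.3, 26.6 and 21.5 CPM under Slc45a4 mRNA knockdown, against 14.4, 19.9 and 24.1 CPM with scramble. Every circSlc45a4 knockdown library stood below 9 CPM, under all 6 of the others. Dll3 fell by 1.25 ± 0.17 on the log2 scale against scramble (adjusted p = 1.61e-04), 2.38-fold lower, and by 1.51 ± 0.17 against the Slc45a4 mRNA knockdown (adjusted p = 5.21e-05), 2.86-fold lower. Under Slc45a4 mRNA knockdown the change against scramble was 0.27 ± 0.17 (adjusted p = 0.296). Dll3 is carried by basal progenitors and newborn neurons, whose summed markers stood below scramble in both knockdowns. Of the 7 basal progenitor markers, Eomes, Neurog1, Insm1 and Elavl4 were called lower under circSlc45a4 knockdown (13.0% of all genes were). Under Slc45a4 mRNA knockdown Btg2 and Elavl4 were called lower (9.09% of all genes). Eomes there averaged 511 CPM against 452 CPM in scramble, and Neurog1 17.6 against 12.2 CPM, neither of them called. Of the 7 newborn neuron markers, 4 were called lower under circSlc45a4 knockdown (13.0% of all genes) and 4 under Slc45a4 mRNA knockdown (9.09%). Dcx, Stmn2 and Sema3c were called in both, Rnd2 only under circSlc45a4 knockdown and Tubb3 only under Slc45a4 mRNA knockdown. The part of these markers in the fall of Dll3 was not tested.

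Jag1 (chr2:137081456-137116644, minus strand), a ligand of the Jagged class, stood at 7.38, 6.396 and 10.2 CPM under circSlc45a4 knockdown and at 31.4, 14.3 and 20.4 CPM under Slc45a4 mRNA knockdown, against 17.02, 21.1 and 23.5 CPM with scramble. The circSlc45a4 knockdown lay below every other library, and the Slc45a4 mRNA knockdown spread over more than 2-fold, around scramble. Jag1 fell by 1.36 ± 0.25 on the log2 scale against scramble (adjusted p = 0.00139), 2.57-fold lower, and by 1.46 ± 0.25 against the Slc45a4 mRNA knockdown (adjusted p = 9.61e-04), 2.75-fold lower. The Slc45a4 mRNA knockdown differed from scramble by 0.10 ± 0.24 (adjusted p = 0.822), and without its replicate 1 by -0.25. Endothelial markers, of a cell type that also carries Jag1, summed to 0.604 to 1.52 CPM under circSlc45a4 knockdown and 0.865 to 1.22 CPM under Slc45a4 mRNA knockdown, against 1.56 to 4.32 CPM in scramble (3 of 8 markers tested). The defining markers Tek and Tie1 were at 0 counts in all circSlc45a4 knockdown libraries and Cdh5 was at 0 counts in all Slc45a4 mRNA knockdown libraries. These were low in scramble too, with means of 0.104 (Tek), 0.222 (Tie1) and 0.442 CPM (Cdh5). No other marker of the list was at 0 counts throughout a group. Of the 3 markers tested, Esam alone was called, lower under circSlc45a4 knockdown than in scramble (13.0% of all genes were). It averaged 0.315 CPM under circSlc45a4 knockdown, 0.669 CPM under Slc45a4 mRNA knockdown and 0.955 CPM in scramble. Kdr averaged 0.455, 0.0649 and 0.524 CPM in the same order. Pecam1 averaged 0.189 CPM under circSlc45a4 knockdown against 0.611 CPM in scramble. The part of these markers in the fall of Jag1 was not tested.

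Dll1 (chr17:15367354-15376872, minus strand), the Delta ligand of newborn neurons and intermediate progenitors, was the most abundant ligand per length. It stood at 131, 101 and 96.8 CPM under circSlc45a4 knockdown and at 119.96, 105 and 123 CPM under Slc45a4 mRNA knockdown, against 71.1, 94.7 and 115 CPM with scramble. The groups overlapped, and the lowest library was scramble replicate 1. The log2 fold changes were 0.22 ± 0.15 (adjusted p = 0.309) under circSlc45a4 knockdown and 0.30 ± 0.15 (adjusted p = 0.194) under Slc45a4 mRNA knockdown, where the value was 0.48 and called without scramble replicate 3 (adjusted p = 0.0499). Jag2 (chr12:112907819-112929776, minus strand), the other Jagged ligand, stood at 17.999, 15.3 and 13.4 CPM under circSlc45a4 knockdown and at 6.25, 14.8 and 12.1 CPM under Slc45a4 mRNA knockdown, against 16.4, 12.99 and 11.9 CPM with scramble. Its groups overlapped, and Slc45a4 mRNA knockdown replicate 1 was the lowest library. Its changes were 0.18 ± 0.24 (adjusted p = 0.618) and -0.31 ± 0.25 (adjusted p = 0.417) under circSlc45a4 and Slc45a4 mRNA knockdown against scramble. Between the knockdowns the difference was 0.49 ± 0.24 (adjusted p = 0.153), and without Slc45a4 mRNA knockdown replicate 2 it was 0.76 (adjusted p = 0.0430).

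Rbpj (chr5:53466152-53657362, plus strand) is the DNA-binding protein through which every Notch receptor acts on its target genes, and it represses those genes when no receptor fragment is bound. It rose in both knockdowns, to levels that overlapped. It stood at 183, 185 and 198 CPM under circSlc45a4 knockdown and at 198, 181 and 203 CPM under Slc45a4 mRNA knockdown, against 88.8, 93.003 and 96.05 CPM with scramble. All 6 knockdown libraries stood above the 3 scramble libraries, and the knockdowns overlapped. The rise was 1.03 ± 0.08 on the log2 scale under circSlc45a4 knockdown (adjusted p = 1.40e-06, 2.04-fold) and 1.07 ± 0.08 under Slc45a4 mRNA knockdown (adjusted p = 2.98e-06, 2.095-fold). The knockdowns differed from each other by -0.04 ± 0.07 (adjusted p = 0.7404). This is the only member of the 10 for which both knockdowns moved by over 2-fold.

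The genome carries a processed pseudogene of Rbpj, Rbpj-ps3 (chr6:46529354-46530794, minus strand, 1441 bases), and 89% of its 50-base words also occur in Rbpj transcripts, so reads of the 2 genes could be split in counting. Its counts were 25.8 to 29.1% of those of Rbpj in every library. It stood at 53.3, 51.9 and 55.6 CPM under circSlc45a4 knockdown and at 51.8, 51.1 and 56.1 CPM under Slc45a4 mRNA knockdown, against 22.95, 26.4 and 27.1 CPM with scramble. All knockdown libraries stood above all scramble libraries, as for Rbpj. Its log2 changes were 1.07 ± 0.09 under circSlc45a4 knockdown (adjusted p = 3.88e-06) and 1.05 ± 0.09 under Slc45a4 mRNA knockdown (adjusted p = 1.01e-05) against scramble. Summed over both genes, the changes were 1.04 (adjusted p = 1.34e-06) under circSlc45a4 knockdown and 1.06 (adjusted p = 3.13e-06) under Slc45a4 mRNA knockdown. The level of Rbpj is uncertain by this split of reads, and its changes moved by at most 0.01 when the copy was added. Genes that overlap other members on either strand carried at most 1.29% of the member's counts, the highest being A930024N18Rik at Dll1.

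Mfng and Lfng moved in opposite directions under circSlc45a4 knockdown. Mfng (chr15:78755882-78773475, minus strand), manic fringe, stood at 67.1, 73.2 and 61.9 CPM under circSlc45a4 knockdown and at 84.3, 100.2 and 100.3 CPM under Slc45a4 mRNA knockdown, against 114, 129 and 131 CPM with scramble. The 3 groups did not overlap, with the circSlc45a4 knockdown lowest and scramble highest. Mfng fell by 0.89 ± 0.10 on the log2 scale under circSlc45a4 knockdown (adjusted p = 2.40e-05, 1.85-fold lower) and by 0.40 ± 0.09 under Slc45a4 mRNA knockdown (adjusted p = 0.0115, 1.32-fold lower). It was lower under circSlc45a4 than under Slc45a4 mRNA knockdown by 0.49 ± 0.09 (adjusted p = 0.00214, 1.41-fold). The call under Slc45a4 mRNA knockdown was lost without scramble replicate 2 (-0.37, adjusted p = 0.0604), with Xist as a covariate (-0.29, adjusted p = 0.304) and when at least a 1.2-fold change was asked for (adjusted p = 0.208).

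Lfng (chr5:140607320-140615545, plus strand), lunatic fringe, which is carried by radial glia, stood at 21.7, 23.9 and 26.02 CPM under circSlc45a4 knockdown and at 11.4, 10.01 and 14.2 CPM under Slc45a4 mRNA knockdown, against 7.698, 12.2 and 13.7 CPM with scramble. The circSlc45a4 knockdown lay above all other libraries, and the Slc45a4 mRNA knockdown overlapped scramble. Lfng rose by 1.08 ± 0.19 on the log2 scale under circSlc45a4 knockdown against scramble (adjusted p = 9.14e-04, 2.12-fold) and was higher there than under Slc45a4 mRNA knockdown by 1.01 ± 0.19 (adjusted p = 0.00164, 2.01-fold). Its change was 0.08 ± 0.19 under Slc45a4 mRNA knockdown (adjusted p = 0.817). Without scramble replicate 1 the rise under circSlc45a4 knockdown was 0.89 (adjusted p = 0.00183). Of the 8 markers of apical progenitors, 5 were called higher under circSlc45a4 knockdown (14.1% of all genes were). Under Slc45a4 mRNA knockdown 4 were (8.92% of all genes). Slc1a3 and Fabp7 were called in both, Sox2, Pax6 and Nes only under circSlc45a4 knockdown, and Prom1 and Hopx only under Slc45a4 mRNA knockdown. The summed list lay above scramble without overlap under circSlc45a4 knockdown and overlapped scramble under Slc45a4 mRNA knockdown. No marker of the list was called lower in either comparison with scramble, and the part of these markers in the change of Lfng was not tested.

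To compare genes with one another, the CPM were also divided by the length of each gene's exons in kilobases (RPKM). Under circSlc45a4 knockdown Dll1 (25.98 RPKM) and Mfng (23.7 RPKM) overlapped at the top, followed by Rbpj (14.8), Notch2 (13.6), Notch1 (11.02), Lfng (9.53), Notch3 (3.54), Dll3 (2.88), Jag2 (2.23) and Jag1 (1.37). Under Slc45a4 mRNA knockdown Mfng (33.4) and Dll1 (27.4) led, then Rbpj (15.2), Notch1 (8.94) and Dll3 (8.24), which overlapped, Notch2 (4.89), Lfng (4.74), Jag1 (3.78) and Notch3 (2.47), which each overlapped the next, and Jag2 (1.59). In scramble Mfng (43.95), Dll1 (22.2) and Notch1 (10.9) led without overlap between neighbours, and from Rbpj (7.26) through Dll3 (6.82), Lfng (4.46), Jag1 (3.52), Notch2 (3.35), Notch3 (2.71) and Jag2 (1.98) each overlapped the next. Under circSlc45a4 knockdown neighbours from Rbpj to Notch3 did not overlap, Dll3 and Jag2 did, and Notch2 stood above Notch1 in that group only. The lengths take in every annotated exon (12750 bases in Rbpj), so a gene whose long exons are seldom used is placed low.

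**Figure D3:**
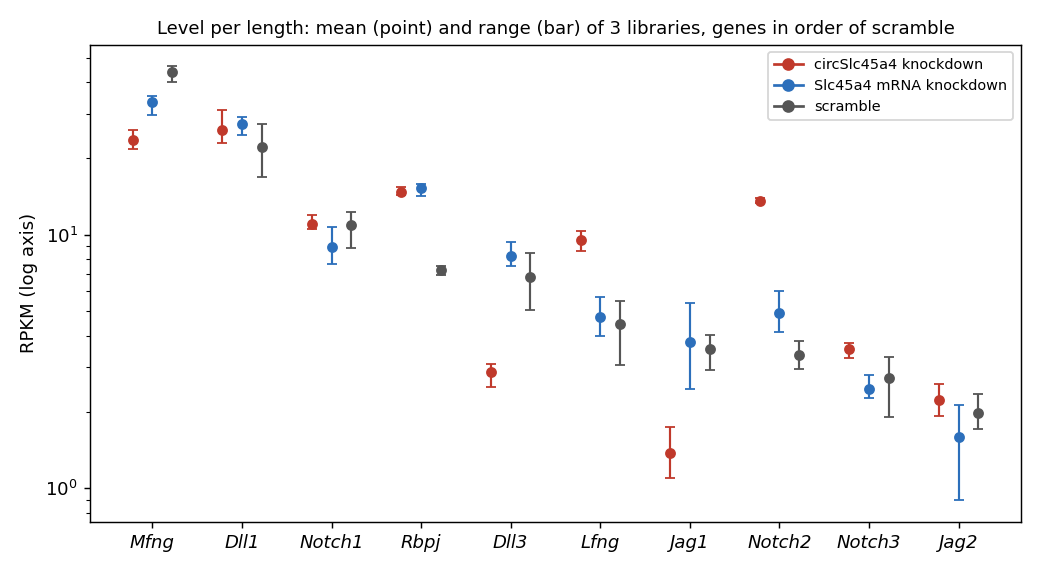
Mean RPKM (vertical axis, log scale) of each gene under circSlc45a4 knockdown, the Slc45a4 mRNA knockdown and scramble, with the range of 3 libraries. Notch2 stands at 13.6 RPKM under circSlc45a4 knockdown, 4.89 under Slc45a4 mRNA knockdown and 3.35 in scramble, while Dll1 stands at 22.2 to 27.4 RPKM in all 3 groups.

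The shares of each family were read within each library. Notch2 took 49.8, 49.2 and 46.2% of the summed RPKM of the 3 receptors under circSlc45a4 knockdown and 31.4, 27.9 and 30.6% under Slc45a4 mRNA knockdown, against 21.5, 20.6 and 17.5% in scramble. No group overlapped another. The summed receptor level was 28.2 ± 0.74 RPKM under circSlc45a4 knockdown, 16.3 ± 2.82 under Slc45a4 mRNA knockdown and 16.99 ± 2.88 in scramble (SD, n = 3 each). Among the fringe enzymes, with Rfng as the third, Mfng took 35.004, 40.2 and 36.5% under circSlc45a4 knockdown and 52.3, 51.3 and 53.4% under Slc45a4 mRNA knockdown, against 62.1, 60.2 and 60.8% in scramble. Lfng took 12.8, 14.9 and 17.4% under circSlc45a4 knockdown and 8.05, 5.804 and 8.57% under Slc45a4 mRNA knockdown, against 4.75, 6.42 and 7.19% in scramble. For Mfng the groups did not overlap, and for Lfng only the circSlc45a4 knockdown stood apart. Among the 4 ligands, Dll1 took 81.8, 80.4 and 77.4% under circSlc45a4 knockdown and 66.8, 64.1 and 69.5% under Slc45a4 mRNA knockdown, against 62.04, 64.3 and 65.8% in scramble. The summed ligand level was 32.5 ± 4.86 RPKM under circSlc45a4 knockdown, 41.05 ± 2.03 under Slc45a4 mRNA knockdown and 34.5 ± 7.16 in scramble. Exact two-sided permutation tests gave p = 0.1, the smallest that 3 against 3 libraries allow, for 13 of the 18 differences (Benjamini-Hochberg adjusted p = 0.138), so none could pass a threshold of 0.05. The exact tests of the 5 others were of the shares of Lfng and Dll1 under Slc45a4 mRNA knockdown against scramble (p = 0.3 each), the receptor sum there (p = 1), and the ligand sum under circSlc45a4 knockdown (p = 0.7) and the Slc45a4 mRNA knockdown (p = 0.2) against scramble.

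**Figure D4:**
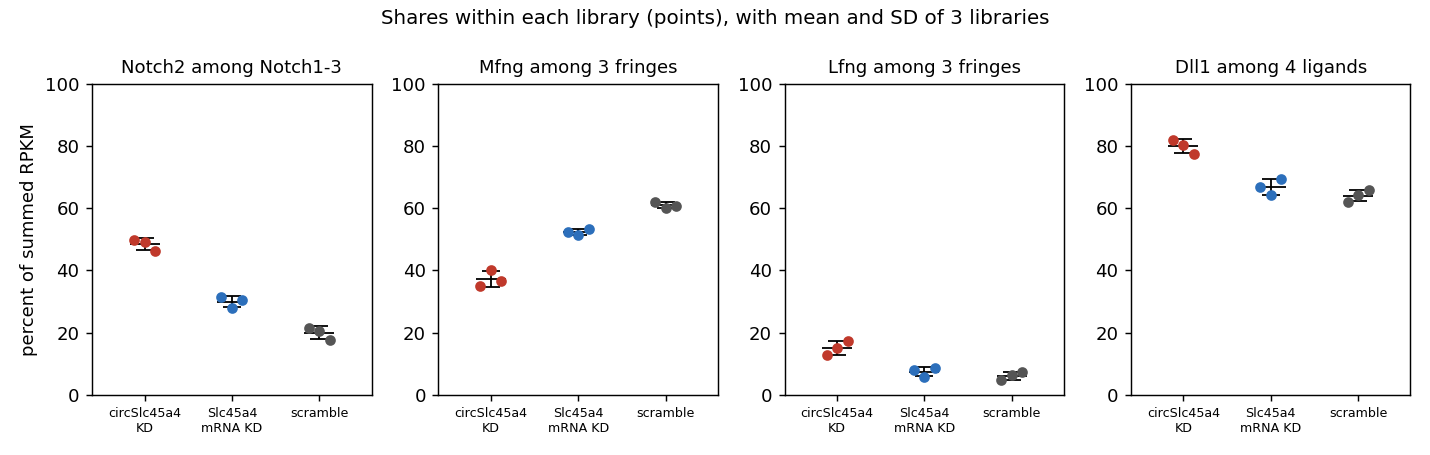
Percent of the family's summed RPKM (vertical axis, from 0) taken by Notch2, Mfng, Lfng and Dll1 in each library (points), with mean and SD, for the circSlc45a4 knockdown, the Slc45a4 mRNA knockdown and scramble. Notch2 reaches 46.2 to 49.8% of the receptors under circSlc45a4 knockdown against 17.5 to 21.5% in scramble, and Mfng takes 35.004 to 40.2% of the fringe enzymes against 60.2 to 62.1%.

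For the member that rose and the member that fell with the smallest p under circSlc45a4 knockdown, the genes of most similar pattern over the 9 libraries were looked up among 11617 genes, by the root mean square difference of log2 CPM centred on each gene's mean. For Notch2 these were Garem1 (0.160), Vcam1 (0.189) and Slc9a3r1 (0.189). Vcam1, a cell adhesion molecule, averaged 39.1 CPM under circSlc45a4 knockdown and 12.6 CPM under Slc45a4 mRNA knockdown, against 10.9 CPM with scramble. Among the members Lfng was nearest to Notch2, at 0.411 and place 92. For Mfng the nearest were Acads (0.0698), Slc1a4 (0.0987) and Nsun4 (0.102), and the nearest member was Notch1, at 0.432 and place 6155. Acads, a mitochondrial enzyme of fatty acid oxidation, averaged 11.4 CPM under circSlc45a4 knockdown and 15.55 CPM under Slc45a4 mRNA knockdown, against 21.02 CPM with scramble. The likeness describes these libraries, which share the treatment groups, and nothing is read from it about shared control.

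Beside the members, 54 other genes of the pathway were listed in 8 groups by role, and 53 were tested (Heyl was not). Under circSlc45a4 knockdown against scramble 10 rose and 8 fell, 34.0% of them beside 27.1% of all genes. Under Slc45a4 mRNA knockdown 6 rose and 14 fell, 37.7% beside 18.0%, and between the knockdowns 13 were higher and 3 lower under circSlc45a4 knockdown, 30.2% beside 26.1%. Their median log2 fold change was 0.07 under circSlc45a4 knockdown and -0.12 under Slc45a4 mRNA knockdown against scramble, and 0.14 between the knockdowns. The genes named below are those of each role with the smallest p, with log2 fold changes ± SE. Where they were called, their edgeR adjusted p ran from 4.58e-06 to 0.0337.

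Of 5 other receptors and ligands tested, 3 fell under circSlc45a4 knockdown, beside 13.0% of all genes. These were Dlk1 by 2.37 ± 0.64, Dlk2 by 1.26 ± 0.21 and Dner by 0.99 ± 0.16 on the log2 scale. They are noncanonical ligands. Dlk1 had few reads, with 24, 6 and 4 under circSlc45a4 knockdown against 15, 30 and 79 in scramble. Its mean was 0.263 CPM against 1.38 CPM, and scramble replicate 3 stood highest. Dlk2 also fell under Slc45a4 mRNA knockdown, by 0.68 ± 0.20. Among 6 glycosylation enzymes, Rfng, radical fringe, and Gxylt1, a xylosyltransferase acting on Notch, each rose by 0.37 ± 0.12 under circSlc45a4 knockdown. Poglut1, which adds glucose to the receptors, rose by 0.52 ± 0.08 under Slc45a4 mRNA knockdown. Among 10 cleavage genes, Furin, which cuts the receptor on its way to the surface, rose by 0.49 ± 0.14 and Adam17 by 0.46 ± 0.10 under circSlc45a4 knockdown, while Adam10, the protease that cuts the ligand-bound receptor, fell by 0.25 ± 0.08. None of the 10 passed under Slc45a4 mRNA knockdown, beside 18.0% of all genes.

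Ligand uptake, which supplies the pull on the receptor, was represented by 6 genes. Mib1, the ligase that marks ligands for uptake, rose by 0.61 ± 0.07 under circSlc45a4 knockdown, and Epn2, an endocytic adaptor, fell by 0.77 ± 0.10. Epn2 fell by 0.40 ± 0.10 and Neurl1b by 0.83 ± 0.17 under Slc45a4 mRNA knockdown. Among 8 genes of receptor turnover, Dtx4 rose by 1.12 ± 0.16 under circSlc45a4 knockdown and by 0.96 ± 0.16 under Slc45a4 mRNA knockdown. Fbxw7, the ligase that removes the receptor's intracellular domain, rose by 0.33 ± 0.09 under circSlc45a4 knockdown and by 0.47 ± 0.09 under Slc45a4 mRNA knockdown. Dtx1 fell by 0.99 ± 0.17 under Slc45a4 mRNA knockdown and was higher under circSlc45a4 knockdown than there by 0.55 ± 0.17.

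Of 7 coactivators, Maml2 rose by 0.47 ± 0.14 and Kat2a fell by 0.26 ± 0.08 under circSlc45a4 knockdown. Under Slc45a4 mRNA knockdown 4 fell (9.09% of all genes did) and 2 rose (8.92%). Maml3 stood at -0.73 ± 0.16 and Maml1 at -0.49 ± 0.11 there. Of 6 corepressors, L3mbtl3, which binds Rbpj and a histone demethylase, rose by 0.49 ± 0.09 under circSlc45a4 knockdown and fell by 0.64 ± 0.09 under Slc45a4 mRNA knockdown. It averaged 74.6 CPM under circSlc45a4 knockdown and 34.2 CPM under Slc45a4 mRNA knockdown, a difference of 1.13 ± 0.09 (adjusted p = 4.58e-06). Its level in scramble averaged 53.2 CPM. Ctbp1, a transcriptional corepressor, fell by 0.55 ± 0.09 under Slc45a4 mRNA knockdown. Of 5 target genes tested, Hes1 rose by 1.42 ± 0.26 under circSlc45a4 knockdown (14.1% of all genes rose). Under Slc45a4 mRNA knockdown Hey1 (-0.61 ± 0.11), Hey2 (-1.64 ± 0.34) and Nrarp (-0.56 ± 0.16) fell (9.09% of all genes did). Hes1 stood higher there too, by 0.77 ± 0.26, without a call (edgeR adjusted p = 0.0577). Between the knockdowns Hes1 was not called (0.64 ± 0.25, edgeR adjusted p = 0.0782). Hey2 had few reads, with 22, 14 and 23 under Slc45a4 mRNA knockdown against 44, 50 and 45 in scramble. Hey1, Hey2 and Nrarp were higher under circSlc45a4 than under Slc45a4 mRNA knockdown, by 0.84 ± 0.11, 1.55 ± 0.33 and 0.92 ± 0.16.

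**Figure D5:**
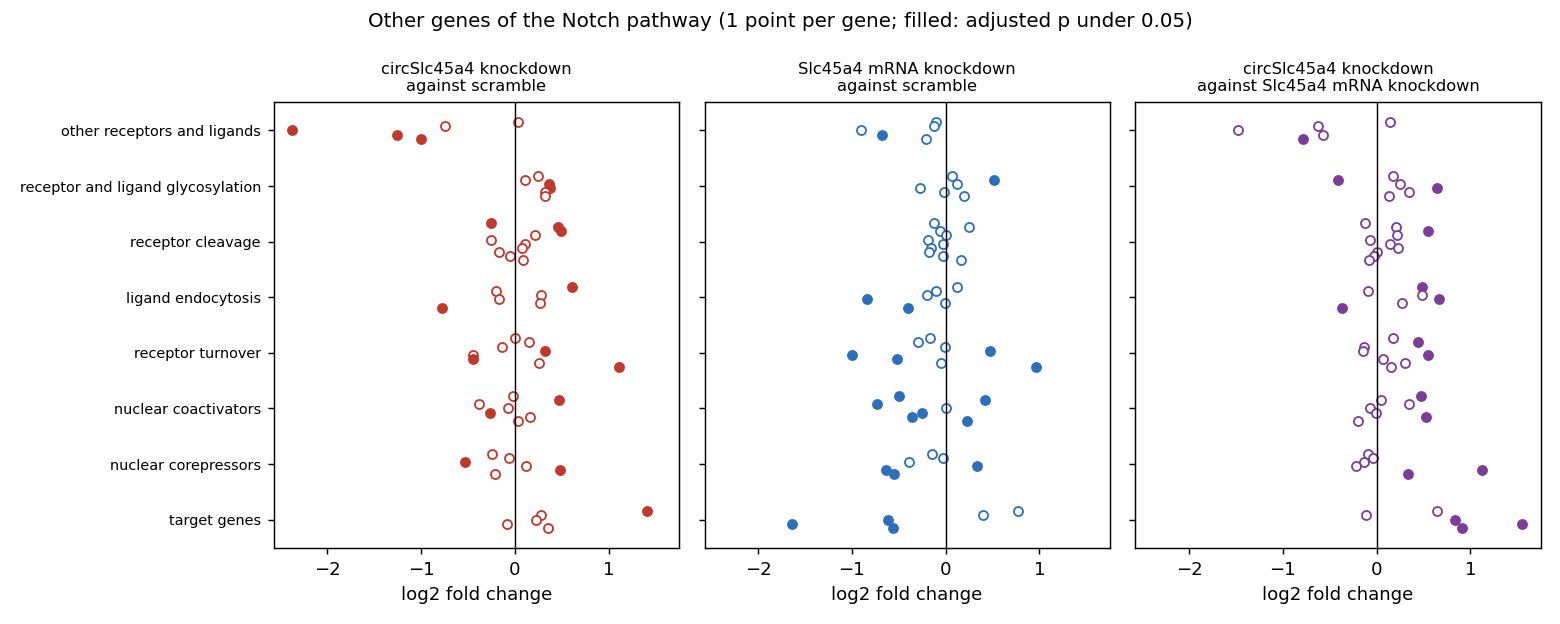
Log2 fold change (horizontal axis) of the 53 other Notch pathway genes tested, in rows by role, under circSlc45a4 knockdown against scramble, the Slc45a4 mRNA knockdown against scramble and the direct comparison, with filled points where the adjusted p of edgeR is under 0.05. Under circSlc45a4 knockdown 10 rose and 8 fell, and under Slc45a4 mRNA knockdown 6 rose and 14 fell.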

How the data were processed

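The values deposited by the authors are raw read counts of 53379 gene IDs across the 9 libraries, which no scaling has touched. Per the submitters' processing notes, the tools were STAR 2.4.2a, bcl2fastq 2.17.1.14 and DESeq2 on build mm10, with no role given. How reads were counted, on which annotation and with which strand setting is not given in the sources used here. IDs were joined to GENCODE M21 (GRCm38), which gave a symbol for 53274.

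In edgeR 4.0.16 (R 4.3.3), filterByExpr with a minimum count of 10 left 17760 genes, and TMM factors scaled the libraries. CPM are counts over TMM-scaled totals, and RPKM divide them by the length of all annotated exons. The quasi-likelihood fit used all 9 libraries with a term for each group, leaving 6 residual degrees of freedom. Each pair of groups was tested, with Benjamini-Hochberg adjustment over all genes and a threshold of 0.05. The common biological coefficient of variation was 13.9%. Each standard error is the log2 fold change over the root of its F statistic. The script was tested on simulated data.

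The members and lists were chosen with earlier results of these data known. All members are named, with up to 4 called genes of each pathway list by smallest p, 1 of which is not reported here. Promoters are RefSeq windows, matched by symbol for 9 of 10 members. Alternatives were size factors (RLE), upper-quartile factors, limma-voom (limma 3.58.1), no filter, DESeq2 1.42.0 with its Wald test, a minimum change of 1.2-fold, only the 6 libraries compared, the replicate number as a block, Xist as a covariate, and leaving out each library. The sum of Rbpj and its pseudogene was added after seeing the data.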

Additional observations from a re-analysis of the deposited data

How the results depend on the processing

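Of 543 values of single genes under the alternatives, 508 kept their direction and their side of the threshold, 13 newly passed, 11 no longer passed and 11 changed sign, all 11 of them without a call. All 6 calls of the circSlc45a4 knockdown against scramble, and that of Rbpj in the Slc45a4 mRNA knockdown, held under each of the 18 other settings. Without the filter 5 genes of the Slc45a4 mRNA knockdown were called against scramble, and against a minimum change of 1.2-fold 1 (Rbpj). Signs changed for Notch1 in the circSlc45a4 knockdown against scramble (-0.044 with upper-quartile factors, -0.12 to 0.10 without 1 library), Notch3 and Jag1 in the Slc45a4 mRNA knockdown against scramble (0.067 and -0.084 with Xist as a covariate, -0.34 to 0.014 and -0.25 to 0.33 without 1 library), Lfng there (-0.12 to 0.25 without 1 library) and Dll1 between the knockdowns (-0.22 to 0.012 without 1 library). Without 1 library, 6 to 7, 2 to 4 and 5 to 7 genes were called in the circSlc45a4 knockdown, the Slc45a4 mRNA knockdown and the direct comparison.

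Over all genes, the counts called were 4814, 3200 and 4632 in the same order of comparisons. With Xist as a covariate they were 1363 and 806 in the first pair, and against a minimum change 2430, 1197 and 2073. Without 1 library they were 3404 to 5557, 1771 to 3082 and 3105 to 4628, the lowest in the Slc45a4 mRNA knockdown being without scramble replicate 2. Upper-quartile factors moved the share of calls that were higher to 42.3% (52.1% with TMM) in the circSlc45a4 knockdown and to 42.1% (52.8%) in the direct comparison. The causes were not tested.

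Libraries with the same replicate number deviated together (r over 0.1) in 2 of 9 pairs (r from -0.20 to 0.18). Those with different numbers did in 5 of 18 pairs (r from -0.20 to 0.27). Deviations thus gave no sign of pairing by number, but they cannot show whether libraries shared a litter or day. With the replicate number as a block, 6, 3 and 7 of the genes were called, the addition being Notch1 between the knockdowns (0.32, adjusted p = 0.0318). With 3 libraries a group, permutation tests cannot pass 0.05, and Jag1 and Jag2, among the genes of fewest reads, have the widest errors.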
